A study of Homo sapiens with 3 samples.

Results

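A group of 10 genes with strong loss of signal in suspended A375 melanoma cells was described across the attached, suspended and reattached states. The members are CPA4, TFF2, FGFBP1, ADGRF1, MAL2, SCNN1A, C19orf33, CALB2, SERINC2 and ALPK2, 10 of 11062 named genes detected on at least 1 array, and 14 probes carry their symbols in the platform annotation. They were picked because their signal was much lower on the suspended than on the adherent array, so their fall is a description and supports nothing. The picking rule named no threshold. Among 10991 genes compared, ranked from the largest fall, CPA4 stood at rank 1 and SERINC2, the last member detected on both arrays, at rank 24 (28 where undetected levels of other genes were left as measured). The ranks of MAL2, SCNN1A and ALPK2 are not exact, because these genes were not detected in suspension and their falls are bounds. SCNN1A stood at rank 35 with its bound and at rank 17 with its own undetected level.

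A375, an established line of human melanoma cells, normally grows attached to the dish. Total RNA was measured on 3 Illumina expression arrays, 1 for each state. The adherent cells were never suspended, the suspended cells came from adherent cells placed on sterile plastic dishes, and the reattached cells were suspended cells moved onto culture dishes in fresh medium for 1 day. All 3 states shared medium with 10% serum, no agent or genetic change was named for any of them, and the sources used here give neither the time in suspension nor the number of cultures behind each RNA. Since each state had 1 array, differences are given as values without a test.

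The members belong to different families, many of them best known from epithelia and glands. CPA4 is a secreted metallocarboxypeptidase, TFF2 a trefoil peptide of mucus and FGFBP1 a secreted carrier that frees fibroblast growth factors from the matrix. ADGRF1 is an adhesion G protein-coupled receptor, MAL2 a membrane protein of transport to the apical surface, SCNN1A the alpha subunit of the epithelial sodium channel and SERINC2 a multi-pass membrane protein of the serine incorporator family. CALB2 encodes the calcium buffer calretinin, ALPK2 an atypical kinase of the alpha family, and C19orf33 a small protein also listed under the name IMUP.

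The epithelial character in the working name of the group was not borne out by a panel of epithelial markers. Of 14 such markers, 13 had a probe, and 4 were detected in adherent, 2 in suspended and 3 in reattached cells. The adhesion proteins EPCAM and CDH1, the claudins CLDN3, CLDN4 and CLDN7 and the keratins KRT18 and KRT19 were not detected on any array. The summed background-corrected signal of the panel was 349 for adherent, 281 for suspended and 323 for reattached cells, the order in which the members also ran, and its part in their values was not tested. The summed signals of mesothelial markers (369, 195 and 267) and fibroblast markers (350, 296 and 335) had the same order. Those of pigment cell and leukocyte markers were lowest in adherent cells, and those of keratinocyte and endothelial markers were lowest in reattached cells. The sums take in undetected probes and can follow a bright gene. The brightest leukocyte marker, CD68, had signals of 942, 1120 and 939 in adherent, suspended and reattached cells. CD14 and LYZ differed by -0.16 and -0.12 (log2, suspended minus adherent). Another LYZ probe, detected in suspension only, differed by 0.27 with its undetected adherent level left as measured. Among keratinocyte markers KRT10 was brightest (2118, 2231 and 1861). MUC1, the brightest epithelial marker, was nearly level at its brightest probe (224, 242 and 229). Another MUC1 probe, detected on all arrays, differed by -0.38 (log2, suspended minus adherent). KRT8 and KRT7 were lower in suspension and DSP was higher. Of the 9 pigment cell markers with a probe, 4 were detected on each array, among them the melanocyte lineage factor SOX10 at signals of 2484, 3698 and 2835 in adherent, suspended and reattached cells, while the pigment genes PMEL, MLANA, TYR and TYRP1 and the marker S100B were not. In a bulk sample, fewer cells of a type and less RNA per cell cannot be told apart.

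Promoter sequences of members were searched as a description only, since the picking itself made the members fall together. RefSeq promoter windows on GRCh38.p14, 250 bases before to 50 after a gene's start, were at hand for 5 members, as 8 windows of which 4 belong to SERINC2. Both strands were searched for TGANTCA (the site of AP-1), GGAATG (the site of TEAD factors, the DNA-binding partners of YAP and TAZ), CAGGTG (the E-box of SNAI and ZEB repressors), TATAAA (the TATA box) and AACCGGTT (the site of the epithelial grainyhead-like factors). The windows of CPA4, the member with the largest fall, and of ADGRF1 and FGFBP1 are shown 5′ to 3′ on the strand of the gene, with matches to the AP-1 and TEAD letters in capitals.
CPA4, chr7:130292911-130293210, plus strand: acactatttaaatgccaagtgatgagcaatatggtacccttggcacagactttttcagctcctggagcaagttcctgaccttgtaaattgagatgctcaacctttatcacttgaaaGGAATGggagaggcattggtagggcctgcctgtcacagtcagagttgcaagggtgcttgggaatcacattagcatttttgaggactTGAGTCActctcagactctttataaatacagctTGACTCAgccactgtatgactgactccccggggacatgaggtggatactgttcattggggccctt
ADGRF1, chr6:47042283-47042582, minus strand: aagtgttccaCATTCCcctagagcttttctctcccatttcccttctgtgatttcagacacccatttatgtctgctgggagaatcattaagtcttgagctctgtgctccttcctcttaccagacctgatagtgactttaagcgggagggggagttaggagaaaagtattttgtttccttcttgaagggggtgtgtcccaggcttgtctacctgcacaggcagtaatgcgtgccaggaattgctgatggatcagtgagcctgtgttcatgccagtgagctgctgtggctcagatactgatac
FGFBP1, chr4:15938691-15938990, minus strand: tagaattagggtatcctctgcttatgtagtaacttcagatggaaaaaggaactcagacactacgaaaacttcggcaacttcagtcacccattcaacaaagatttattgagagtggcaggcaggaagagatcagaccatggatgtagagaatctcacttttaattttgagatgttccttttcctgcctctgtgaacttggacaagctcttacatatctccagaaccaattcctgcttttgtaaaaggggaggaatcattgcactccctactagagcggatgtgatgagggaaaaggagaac

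The CPA4 window held 2 matches to the AP-1 letters, with first bases at -48 and -15 from the start, 1 match to the TEAD letters at -134, and overlapping TATA letters at -30 and -28 on opposite strands. The AP-1 letters occur in 7.71% of the 35116 windows searched, and 0.515% hold at least 2 matches. The TATA letters occur in 11.5% of all windows. At least 2 AP-1 matches together with a TEAD match, a combination looked up after it was seen in CPA4, occurred in 0.0997% of windows. ADGRF1 held the TEAD letters at -240, as 14.0% of all windows do. Of the SERINC2 windows, 1 held the E-box letters, at -127 and -118. At least 1 E-box match occurs in 20.6% of all windows, and the share with 2 was not counted. The windows of FGFBP1 and ALPK2 held none of the 5 motifs, and the grainyhead letters, present in 0.134% of all windows, were in none of the 8. The TEAD letters of CPA4 and ADGRF1 were the only motif found in windows of more than 1 of these 5 members. They were in 2 of the 8 windows, beside 14.0% of all windows, and nothing is read from this. A match is a description of these letters and not a bound site.

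**Figure D1:**
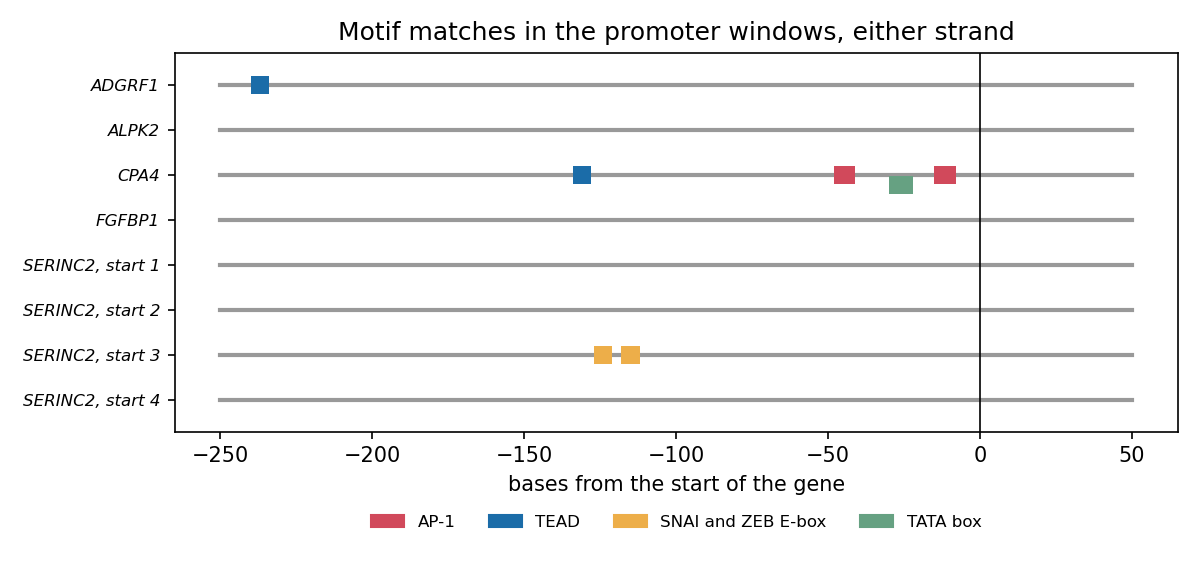
Matches to the 4 motifs that were found, drawn as coloured boxes along the 8 promoter windows of 5 members (grey lines, x axis in bases from the start of the gene, boxes to scale). CPA4 alone holds AP-1 letters, at -48 and -15, and ALPK2 and FGFBP1 have an empty line.

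Among the secreted products, CPA4 had the brightest probe of the group in adherent and reattached cells, and CALB2 in suspended cells. The CPA4 scanner signal was 2790 in adherent, 324 in suspended and 1420 in reattached cells, with a detection p-value of 0 on each array. On the normalized log2 scale used from here on, CPA4 was 10.5-fold lower in suspended than in adherent cells, the largest fall of the 10991 genes compared. After reattachment it was 5.56-fold above suspended cells and 1.89-fold below adherent cells. Its place among detected probes moved from percentile 92.9 in adherent cells to 55.3 in suspension and 86.4 after reattachment.

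TFF2 had signals of 276, 76.0 and 166 in adherent, suspended and reattached cells. The suspended value was near the limit of detection, with a detection p-value of 0.0065 and a place at percentile 2.61 of detected probes. TFF2 was 6.40-fold lower in suspended than in adherent cells and 3.70-fold above that after reattachment, which left it 1.73-fold under the adherent level. Under 3 settings that leave background in the signal or add to it (the authors' deposited values, no background correction, and normexp correction with an offset of 50), TFF2 was 3.77-fold to 3.86-fold lower in suspension and 2.41-fold to 2.43-fold higher after reattachment. FGFBP1 had signals of 269, 89.4 and 136. It was 4.74-fold lower in suspension and 2.14-fold higher after reattachment than in suspension, and it ended 2.21-fold under adherent cells. With the authors' deposited values the fall of FGFBP1 was 3.16-fold. The suspended array was the lowest and the adherent array the highest for all 3 secreted members, with reattached cells between.

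**Figure D2:**
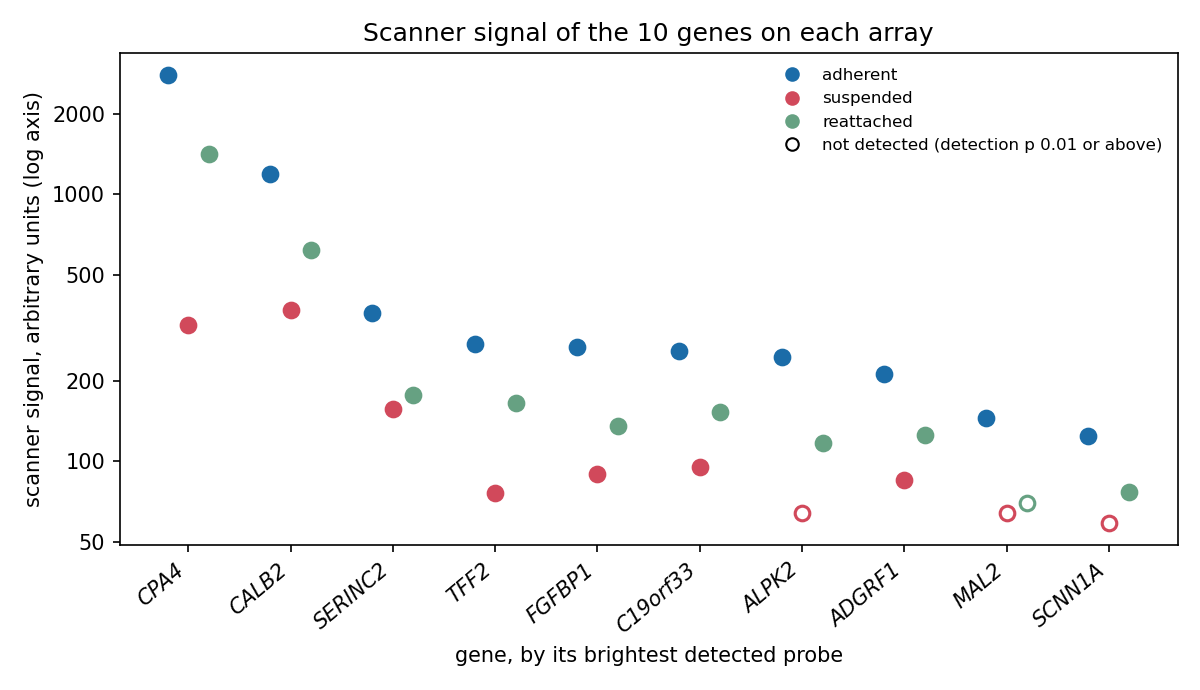
Scanner signal (log axis, arbitrary units) of the brightest detected probe of each of the 10 genes on the adherent, suspended and reattached array, 1 point per array, with open circles where the probe was not detected. For every gene the reattached point lies between the suspended and the adherent point, close to the suspended point for SERINC2 (158 and 177) and MAL2 (64.1 and 70.1).

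Among the membrane proteins, SERINC2 had signals of 361, 158 and 177 in adherent, suspended and reattached cells. It was detected on all arrays, 2.94-fold lower in suspended than in adherent cells, and 1.35-fold higher again in reattached cells. SERINC2 was then still 2.18-fold under the adherent level.

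MAL2 and SCNN1A dropped out of detection in suspension. MAL2 had signals of 146, 64.1 and 70.1, with detection p-values of 0, 0.0519 and 0.013, and was at least 3.16-fold lower in suspended and at least 2.91-fold lower in reattached than in adherent cells. Where a probe was not detected, the dimmest detected level of the same array stood in its place if its own level was lower, so that these folds are bounds. Under the same 3 settings the bound for MAL2 in suspension was 2.10-fold to 2.11-fold. MAL2 was not detected on either the suspended or the reattached array, and no fold between them is given. SCNN1A had signals of 125, 58.7 and 76.5, with detection p-values of 0, 0.148 and 0.0052. It was at least 2.56-fold lower in suspended than in adherent cells and 2.06-fold lower in reattached than in adherent cells. Under the 3 settings neither difference of SCNN1A reached 2-fold, with bounds of 1.79-fold to 1.80-fold in suspension and falls of 1.60-fold to 1.61-fold in reattached cells. Reattached cells were at least 1.24-fold above suspended cells for SCNN1A. Among the 10 probes that stand for the genes, those of MAL2 and SCNN1A were the dimmest in adherent cells, at percentiles 36.3 and 30.9 of detected probes.

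ADGRF1 was read by 4 probes, 2 annotated to transcript NM_153840 and 2 to NM_025048. The brightest, of NM_153840, had signals of 213, 85.0 and 126 and was 3.92-fold lower in suspended than in adherent cells, and in reattached cells 2.10-fold above the suspended and 1.87-fold below the adherent level. The other probe of NM_153840 had signals of 95.7, 69.3 and 80.2, was not detected in suspension, and was at least 1.74-fold lower there than in adherent cells. The first probe of NM_025048 had signals of 71.7, 53.4 and 61.6, was detected in adherent cells only, and gave a bound of 1.05-fold. The second, at 51.0, 44.8 and 49.7, was not detected on any array. The 3 probes detected in adherent cells had their lowest signal in suspension. Only the brightest was detected there, so the size of the fall cannot be compared between the probes.

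Among the intracellular products, CALB2 had 2 probes that disagreed, although both are annotated to NM_007088. The bright probe had signals of 1193, 368 and 618 and was 3.83-fold lower in suspended than in adherent cells, and in reattached cells 2.04-fold above the suspended and 1.88-fold below the adherent level. The dim probe had signals of 104, 108 and 95.5, detected on all arrays. Its log2 differences were -0.093 for suspended minus adherent and -0.046 for reattached minus suspended. The fall and return of CALB2 therefore rest on 1 of its 2 probes. The files do not show which probe reads the gene better.

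**Figure D3:**
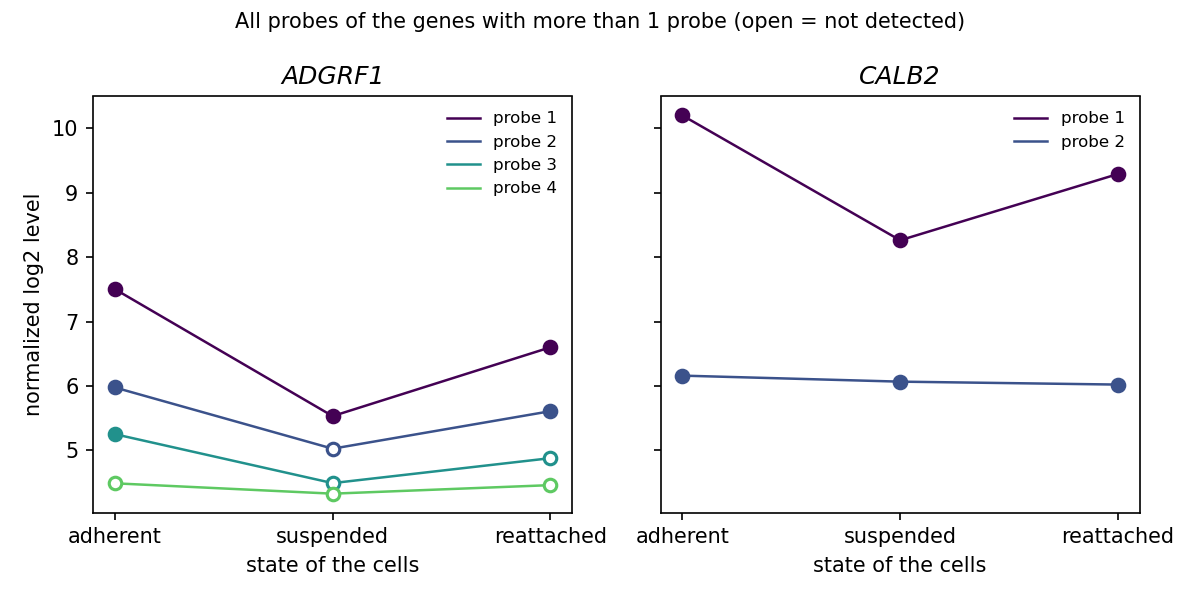
Normalized log2 level of every probe of ADGRF1 (4 probes) and CALB2 (2 probes) in adherent, suspended and reattached cells, 1 line per probe from the brightest (probe 1) to the dimmest, with open circles where not detected. Only the brightest ADGRF1 probe is detected on all 3 arrays, and the dim CALB2 probe stays flat (-0.09) beside the bright probe's -1.94.

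ALPK2 had signals of 245, 64.2 and 117, and the suspended value was not detected (detection p-value 0.0506). ALPK2 was at least 5.91-fold lower in suspended than in adherent cells and at least 2.43-fold higher than that after reattachment, when it was also 2.43-fold under the adherent level. Under the 3 settings that leave more background in, the bound for its fall was 3.46-fold to 3.53-fold. C19orf33 had signals of 258, 95.4 and 153. It was 4.05-fold lower in suspension and 2.26-fold higher after reattachment than in suspension, and stayed 1.80-fold under the adherent level. Each of these genes had 1 probe, as did 8 of the 10 members, so that no second probe bears on them.

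Across the group, 10 of 10 members were at least 2-fold lower in suspended than in adherent cells, a count that the picking fixed, where 0.655% of the 10991 genes compared were. The members' median log2 difference was -1.99, beside 0.00 for all genes compared. Of the 14 probes, 13 had a lower raw scanner signal in suspended than in adherent cells, and the same 13 had a reattached signal between the others. The exception was the dim CALB2 probe. Without normalization the signal in suspension was from 11.6% (CPA4) to 47.2% (SCNN1A) of the adherent signal for the 10 probes that stand for the genes, background included. Log2 differences over all genes detected on both arrays of a comparison had an SD of 0.298 for suspended minus adherent, 0.225 for reattached minus suspended and 0.219 for reattached minus adherent.

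Reattached cells were above suspended cells for the 9 members that could be compared, with 7 at least 2-fold higher, where 0.205% of 10715 genes were. The median was 1.10 for these members on the log2 scale and 0.01 for all genes compared. CPA4 and TFF2 held ranks 1 and 2 from the highest difference of the 10715 genes, while SERINC2 held rank 260 and SCNN1A, with its bound, rank 712. This comparison shares the suspended array with the one that chose the members, and the comparison of reattached with adherent cells shares the adherent array. A value that was low or high by error on a shared array moves both comparisons, so nothing is read from these counts or ranks. With background left in the signal, 2 members (CPA4 and TFF2) and not 7 reached 2-fold.

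Reattached cells stayed below adherent cells for 10 of 10 members. For 5 of them, FGFBP1, MAL2, SCNN1A, SERINC2 and ALPK2, the difference reached 2-fold, where 0.102% of 10821 genes did. The other 5 lay between 1.73-fold (TFF2) and 1.89-fold (CPA4), close to that line. With background left in the signal, 2 members (MAL2 and ALPK2) and not 5 reached it. The members' median log2 difference was -0.98, beside 0.01 for all genes. The return of each member can be stated as the share of the log2 fall regained in reattached cells. Over the 7 members detected on all 3 arrays it was from 27.8% (SERINC2) to 73.0% (CPA4), with a median of 54.2%. TFF2 regained 70.4%, C19orf33 58.2%, ADGRF1 54.2%, CALB2 53.1% and FGFBP1 49.0%. The 4 values from 49.0% to 58.2% lie close together, and single arrays give no spread by which to order them.

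**Figure D4:**
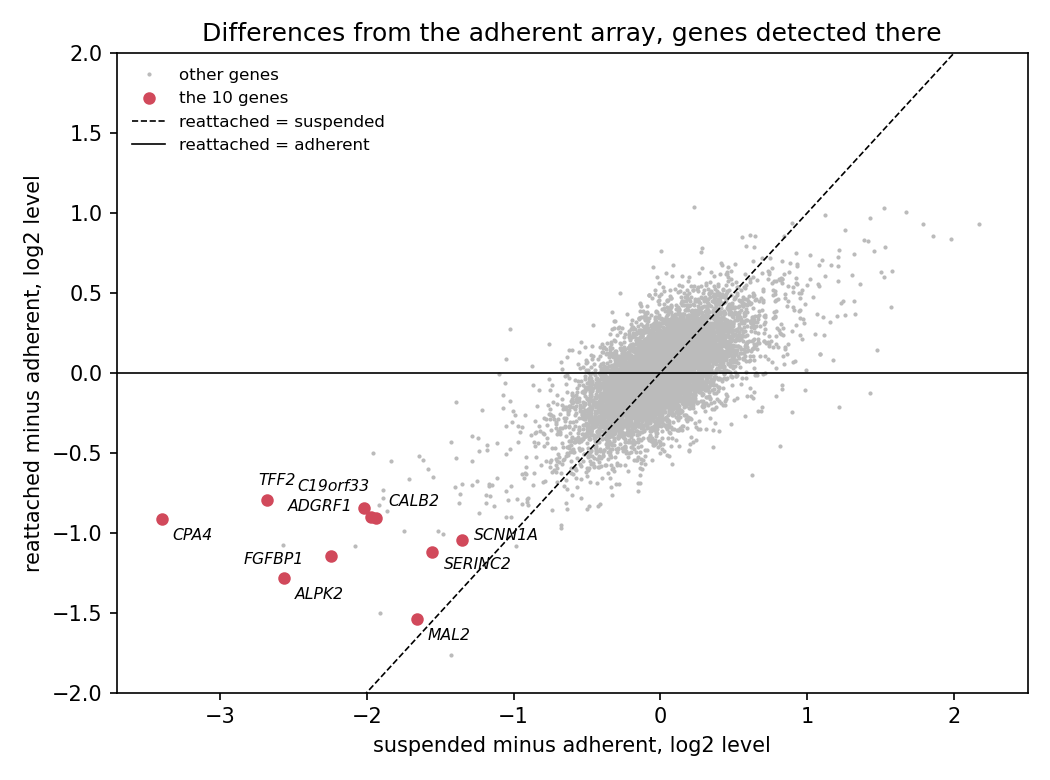
Log2 difference from the adherent array in suspended (x axis) and reattached cells (y axis) for each gene detected on the adherent array, with the 10 genes in red and the others in grey. The axes share the adherent array; the 10 genes lie between the dashed line of no return and the horizontal line of full return, MAL2, SCNN1A and SERINC2 nearest to the dashed line, with MAL2 drawn at bounds on both axes and SCNN1A and ALPK2 on the x axis.

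Relatives and partners of the members in their pathways were mostly within 2-fold between suspended and adherent cells. In 18 lists, TFF3 and MSLN were at least 2-fold lower and FGFR4 at least 2-fold higher, where 0.655% and 0.5% of all genes compared were. With background left in the signal none of the 3 reached 2-fold, and with median scaling or cyclic loess the keratin KRT14 also did. The lists were chosen by function with earlier results of these data known, and they leave out the members. Of 8 genes with a probe among the other A and B carboxypeptidases and their inhibitor latexin (LXN), LXN alone was measured, at -0.37 for suspended minus adherent on the log2 scale. Among trefoil peptides and mucins, 2 of 11 genes with a probe were measured. The trefoil peptide TFF3 had signals of 190, 119 and 141 in adherent, suspended and reattached cells, 2.04-fold lower in suspension. The mucin MUC1 differed by -0.01 at its brightest probe and by -0.38 at another probe detected on all arrays.

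Of the 7 measured genes of the growth factor system that FGFBP1 serves, 0 were at least 2-fold lower and 1 was at least 2-fold higher. Their median for suspended minus adherent was 0.53, with 5 genes above 0 and 2 below. The receptor FGFR4 was 2.24-fold higher in suspension (signals of 69.6, 122 and 88.5), and its 2 other probes were not detected on any array. With background left in the signal it did not reach 2-fold. The heparan sulfate carriers SDC2 and SDC1 differed by 0.92 and -0.36, SDC4 by -0.03 and the relative FGFBP2 by 0.53. The probes of the receptor FGFR3 disagreed, at 0.65 and -0.30. So did those of the ligand FGF2, at 0.21 and, for a probe not detected in suspension, -0.20.

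Of the 11 measured adhesion receptors related to ADGRF1, 0 passed 2-fold in either direction, with a median of 0.21. ADGRG6 differed by 0.58, ADGRV1 by 0.45, ADGRA2 by 0.42 and ADGRL1 by 0.32, and ADGRV1 and ADGRA2 were not detected in adherent cells, so that these are lower bounds. The 6 measured genes of the MAL and MARVEL family and apical transport had a median of 0.03 and a range of -0.25 (CMTM7) to 0.11 (CMTM8). MAL itself, MALL and PLLP were not detected on any array. SCNN1A was the only detected subunit of the sodium channel among SCNN1A, SCNN1B and SCNN1G. The channel's measured regulators were the kinase SGK1 (0.62), which raises channel number at the membrane, the ubiquitin ligases NEDD4L (-0.34) and NEDD4 (0.02), which remove channels, and the processing protease FURIN (0.21). Another NEDD4 probe, detected on all arrays, differed by -0.18.

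The 7 measured relatives of calretinin among EF-hand proteins had a median of 0.06, led by RCN2 (0.34), RCN1 (0.27), VSNL1 (0.24) and HPCAL1 (-0.15). RCN3 differed by 0.06 and was not detected in reattached cells. The SERINC family and the enzymes of serine use had a median of 0.00 over 9 genes, with SERINC1 at 0.24, SERINC3 at 0.00 and the serine synthesis enzymes PSPH at -0.32 and PHGDH at 0.08. Of the other alpha kinases, EEF2K differed by 0.27 and TRPM7 by 0.17. None of these 3 lists had a gene past 2-fold.

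No measured regulator of epithelial genes had a value or bound past 2-fold. A bound, as for GRHL1 and TWIST2 below, does not show that a difference was under 2-fold. The signs of the 2 list medians for suspended minus adherent were the same under the 5 other scalings and background corrections. Of 15 epithelial factors with a probe, 6 were measured. All 6 measured epithelial transcription factors lay below 0, with a median of -0.24 and KLF5 (-0.57), FOXA1 (-0.46), GRHL1 (-0.25, not detected in suspension, an upper bound) and TFAP2A (-0.22) in front. ELF3, not detected in reattached cells, differed by -0.15. Of 4 measured repressors, 3 lay above 0, with a median of 0.37, TWIST1 at 0.54, ZEB2 at 0.43 and ZEB1 at 0.31. TWIST2, not detected in suspension, had an upper bound of -0.12. Over all genes compared the median was 0.00, so about as many lay below 0 as above. The SD was 0.298 over genes detected on both arrays. Whether these regulators bear on the members' values was not tested. The reattached minus suspended medians of the 2 lists were 0.01 and -0.14. In that comparison KLF5 lay at -0.08, FOXA1 at -0.11, TFAP2A at 0.01 and TFAP2C at 0.17, and ELF3 had an upper bound of 0.11. The 4 measured epithelial markers did not share a direction. KRT8 had signals of 102, 61.5 and 76.7 in adherent, suspended and reattached cells and was not detected in suspension, with a bound of 1.92-fold. KRT7, at 80.2, 52.1 and 60.0, was detected in adherent cells only and was at least 1.30-fold lower in suspension. DSP, at 76.4, 92.9 and 74.9, differed by 0.32. MUC1 differed by -0.01 at its brightest probe and by -0.38 at another detected probe. Of the 2 measured keratinocyte markers, KRT14 had signals of 104, 70.1 and 90.7, with a bound of 1.99-fold in suspension, where it was not detected, and KRT10 differed by -0.06. Of the mesothelial markers, a tissue in which CALB2 is also used as a marker, mesothelin (MSLN) had signals of 318, 175 and 192. It was 2.24-fold lower in suspended than in adherent cells. The probes of WT1, detected on all arrays, disagreed, at -0.09 and 0.27. Fibroblast and leukocyte markers had medians of -0.16 (4 genes) and -0.12 (3 genes) with none past 2-fold. The fibroblast markers LUM, DCN and PDGFRB, detected on all arrays, differed by -0.42, -0.31 and -0.01. The fibroblast marker PDGFRA was detected in suspension only with 1 probe, a lower bound of 0.31, and in adherent cells only with another. The 1 endothelial marker detected, PECAM1, had signals of 69.2, 57.6 and 54.5 and was detected in adherent cells only, near the limit, so that the direction of its difference is not known.

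**Figure D5:**
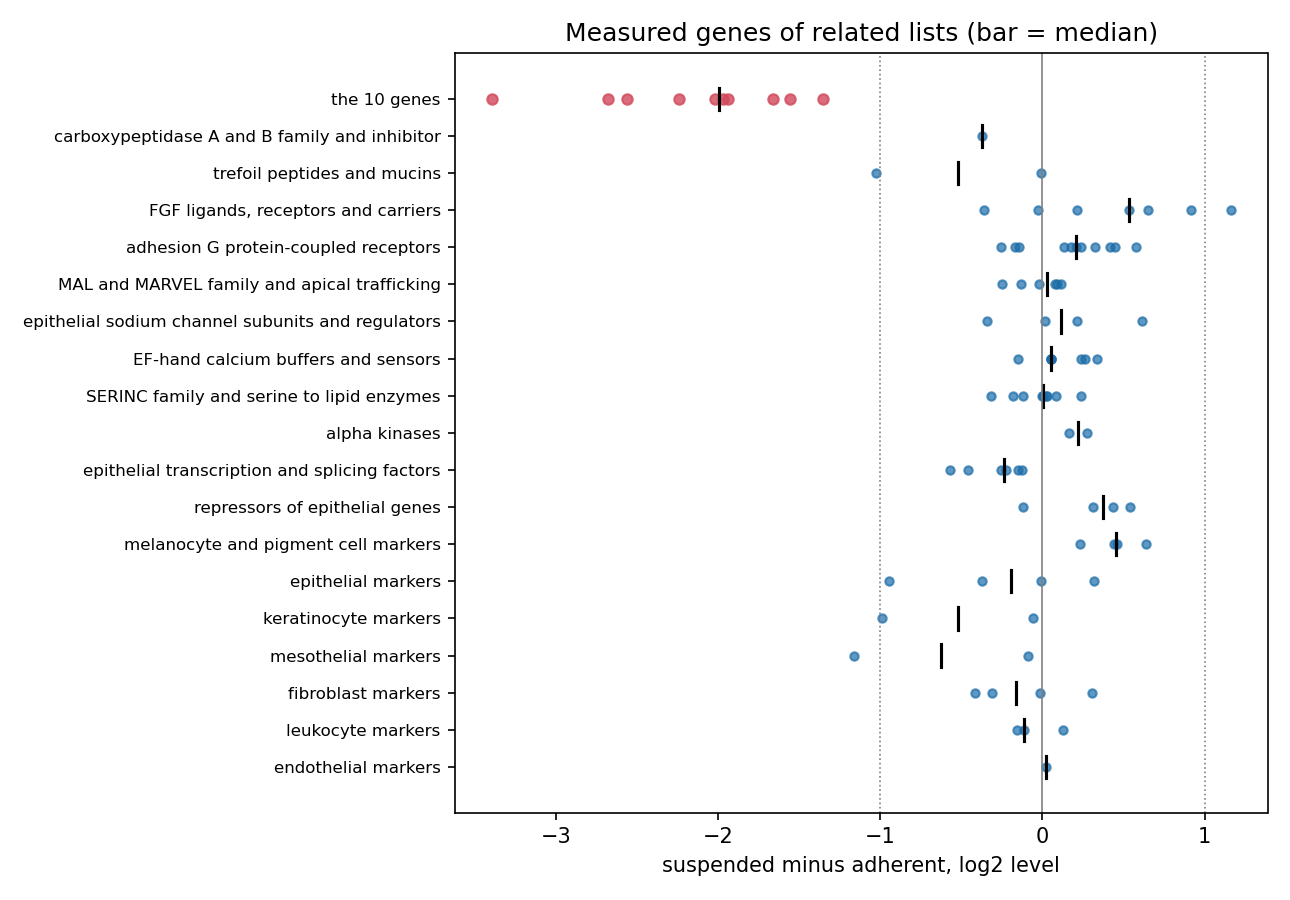
Log2 difference between suspended and adherent cells for each measured gene of the related lists (blue points, black bar at the median) and for the 10 genes (red, picked for this fall), with dotted lines at 2-fold. The lists centre between -0.63 (mesothelial markers) and 0.53 (FGF ligands, receptors and carriers), and only TFF3, MSLN and FGFR4 lie outside the dotted lines, with genes detected on 1 of the 2 arrays drawn at their bounds.

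A search for like patterns left out the members and genes with symbols beginning with LOC or containing orf, KIAA, FLJ or MGC. It covered 10513 genes detected in adherent cells and measured in both comparisons. The members' median pair of log2 differences was -1.99 for suspended minus adherent and -0.98 for reattached minus adherent. By Euclidean distance over 3 arrays, 5 genes were nearest to this pair. They were SPANXA1, SPANXC and SPANXB1 of a cancer-testis family, SUSD2, a membrane protein with a sushi domain, and VIPR1, a receptor for vasoactive intestinal peptide. SUSD2 had signals of 467, 166 and 260, and VIPR1 of 267, 111 and 146, in adherent, suspended and reattached cells. SPANX genes are nearly identical, so their probes may not tell them apart, and 2 other SPANXB1 probes differed by 0.03 and 0.06 where the one used gave -1.89.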

How the data were processed

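In the deposited scanner table, per the file headers, there is a signal intensity and a detection p-value for each of 47323 probes on 3 arrays, not normalized between arrays. The deposited value table holds intensity values with nearly equal distributions on the arrays (medians 58.1), made by a method that the sources used here do not give, and served as an alternative. RNA was extracted with Trizol and labelled with an Ambion kit, per the labels' protocols. Detected probes numbered 17761, 17466 and 16826 on the adherent, suspended and reattached array, and the number of arrays limits precision.

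Signals were background-corrected, quantile-normalized and put on the log2 scale with neqc (limma 3.58.1, R 4.3.3), offset 16, with negative controls inferred from the detection p-values. The offset shrinks differences of dim probes. Of the probes, 30113 had 1 gene symbol, 8 several and 17202 were unnamed here. Detected meant a detection p-value under 0.01. A gene was represented by its detected probe of highest mean level. Python 3.11.15, pandas 2.3.3 and matplotlib 3.10.9 did the rest. The background correction and normalization were tested on simulated arrays in which bright probes were changed by known folds. Dim probes, the detection filter, the replacement of undetected levels and the choice of probe were not tested in this way. The members, the 18 related lists and the rules were chosen with earlier results of these data known. The rule was to name all members, list genes past 2-fold or, failing these, up to 4 with the largest difference, list genes detected on some arrays only, and the 5 nearest in pattern. Further genes were named after their values were seen. Some genes under the rule were not named, among them genes of the pigment cell, serine and MAL lists. Alternatives were other normalizations, background corrections, detection filters and probe choices.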

Additional observations from a re-analysis of the deposited data

How the results depend on the processing

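No paired analysis was possible because each state had 1 array and no result came from a test. The fall in suspension held at 2-fold for 8 to 10 of the 10 members under all 10 alternatives, and the members' median ran from -2.02 to -1.58. The 2-fold counts of the other comparisons depend on how much background is left in. With the authors' deposited values, without background correction and with normexp at an offset of 50, 2 members (in place of 7) were at least 2-fold above suspended cells after reattachment and 2 (in place of 5) at least 2-fold lower in reattached than in adherent cells, and genes 2-fold lower in suspension numbered 37, 37 and 38 in place of 72. Over the same alternatives genes 2-fold higher in suspension numbered 30, 32 and 32 in place of 55, those higher after reattachment than in suspension 9, 11 and 11 in place of 22, and those lower in reattached than in adherent cells 4, 5 and 5 in place of 11 (18 with a detection limit of 0.05 and 20 without the floor). These settings leave background in the signal or add to it, which shrinks differences of dim genes by construction. They took SCNN1A under 2-fold in suspension and moved TFF2 and ALPK2 by over 1.5-fold, as the authors' values did FGFBP1 and MAL2. With the detected probe of lowest level, CALB2 gave -0.046 for reattached minus suspended, against 1.03. ADGRF1 gave 0.041 for reattached minus adherent (an upper bound, since that probe was detected in adherent cells only), against -0.90. For suspended minus adherent CALB2 gave -0.093. ADGRF1 gave an upper bound of -0.076 there, and -0.76 with its undetected suspended level left as measured. Cyclic loess split the reattached against adherent calls into 12 lower and 2 higher, against 11 and 4. Of 289 values of single members under the alternatives, 18 moved by more than 1.5-fold. The 2 that changed sign were the CALB2 value of -0.046 and the ADGRF1 value of 0.041 above.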
